A study of Mus musculus with 7 samples.

Results

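Potassium channel genes were read out in 7 RNA sequencing libraries of mouse neural crest-derived cells. Every gene whose mouse symbol begins with Kcn was taken as a member, which gave 98 of the 27179 genes in the expression table. 94 of them code for a protein and 4 are non-coding transcripts (Kcnd3os, Kcnmb4os1, Kcnmb4os2 and Kcnq1ot1). The coding members fall into 5 families by the letters of their symbols. There are 40 pore-forming subunits of voltage-gated channels, 13 auxiliary subunits of such channels, 15 inward rectifiers, 14 two-pore leak channels and 12 subunits of calcium- or sodium-activated channels.

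The cells came from Wnt1-tdT mice, in which Cre recombinase driven by the Wnt1 promoter turns on the R26R-tdTomato reporter. The red label then marks neural crest cells and all their descendants, whatever type they have become. Each of the 7 groups had 1 library, made from RNA of about 50000 cells pooled from 3 mice aged 1 month, 2 female and 1 male. Libraries held between 51885106 and 65301500 reads. Adipose neurospheres were grown in 2 stages of 10 days each, with the tdTomato-positive cells sorted between the stages, and primary adipose cells were tdTomato-positive cells sorted directly from posterior subcutaneous fat pads. Bowel M2 neurospheres were grown in the same 2 stages from the muscle and myenteric plexus layer of the small bowel. Bowel M1 neurospheres were sorted first and then grown for 10 days. The tdTomato-positive and tdTomato-negative spheroid cells were sorted from mixed bowel spheroids after the first 10 days, and the negative cells are the only group without the label. Primary bowel cells were sorted as tdTomato-positive directly from that bowel layer. The medium of the cultured groups held heparin and the growth factors bFGF and EGF.

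Potassium channels let potassium leave or enter the cell along its gradient and so set the resting potential, end action potentials and buffer extracellular potassium. Voltage-gated channels open on depolarisation, calcium-activated ones on a rise of calcium, and inward rectifiers and two-pore channels carry current near rest. In the gut wall, neurons, glia, smooth muscle and interstitial cells each use their own set, and in myelinating Schwann cells and the axons they wrap, Shaker-type channels are the best known.

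The promoters of 6 members are shown here because the results turn on these genes. Kcna2, Kcna4 and Kcna6 were far higher in tdTomato-positive than in tdTomato-negative spheroid cells, and Kcne4, Kcnj8 and Kcnmb1 were highest in tdTomato-negative or primary bowel cells. Each window runs from 250 bases before to 50 bases after a transcript start in RefSeq (GRCm38.p6), written 5′ to 3′ on the gene's strand, and capitals mark each CG dinucleotide, the target of DNA methylation in vertebrates. The windows are chr3:107101317-107101616 (plus strand) for Kcna2, chr2:107290339-107290638 (plus) for Kcna4, chr6:126740625-126740924 (minus) for Kcna6, chr1:78816661-78816960 (plus) for Kcne4, chr6:142571565-142571864 (minus) for Kcnj8 and chr11:33962763-33963062 (plus) for Kcnmb1. The start site lies at the outer end of the annotated gene for Kcna4, Kcne4 and Kcnj8, but 58 bases inside it for Kcnmb1, 160 bases inside for Kcna6 and 10684 bases inside for Kcna2, whose gene begins farther upstream.
Kcna2: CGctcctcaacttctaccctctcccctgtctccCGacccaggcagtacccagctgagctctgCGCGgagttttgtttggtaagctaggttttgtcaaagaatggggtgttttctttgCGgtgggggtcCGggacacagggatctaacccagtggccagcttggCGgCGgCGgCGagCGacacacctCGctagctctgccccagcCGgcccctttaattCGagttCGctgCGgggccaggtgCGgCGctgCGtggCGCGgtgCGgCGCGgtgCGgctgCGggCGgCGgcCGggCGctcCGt
Kcna4: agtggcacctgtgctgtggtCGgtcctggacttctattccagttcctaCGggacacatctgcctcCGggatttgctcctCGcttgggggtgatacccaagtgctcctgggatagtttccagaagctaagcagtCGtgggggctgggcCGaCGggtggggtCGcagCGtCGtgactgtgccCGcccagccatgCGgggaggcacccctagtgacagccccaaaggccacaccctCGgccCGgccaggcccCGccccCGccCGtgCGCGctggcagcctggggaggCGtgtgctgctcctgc
Kcna6: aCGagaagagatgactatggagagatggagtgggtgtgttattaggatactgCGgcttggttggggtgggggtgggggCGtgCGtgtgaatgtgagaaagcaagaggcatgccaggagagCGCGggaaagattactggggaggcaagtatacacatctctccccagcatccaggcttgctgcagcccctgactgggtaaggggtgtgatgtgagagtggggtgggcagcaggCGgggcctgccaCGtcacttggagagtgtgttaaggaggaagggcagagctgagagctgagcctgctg
Kcne4: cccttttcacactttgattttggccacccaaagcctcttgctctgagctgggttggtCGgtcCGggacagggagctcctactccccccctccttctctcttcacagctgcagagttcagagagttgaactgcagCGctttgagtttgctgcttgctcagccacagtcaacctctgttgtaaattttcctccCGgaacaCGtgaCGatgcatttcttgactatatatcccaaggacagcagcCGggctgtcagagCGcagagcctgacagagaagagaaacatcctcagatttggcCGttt
Kcnj8: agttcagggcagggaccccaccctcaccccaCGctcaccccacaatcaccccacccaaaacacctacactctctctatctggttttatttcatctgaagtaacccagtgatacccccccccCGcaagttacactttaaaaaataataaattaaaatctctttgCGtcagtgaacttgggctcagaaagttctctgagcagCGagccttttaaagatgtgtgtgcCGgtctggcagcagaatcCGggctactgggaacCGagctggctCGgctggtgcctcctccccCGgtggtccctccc
Kcnmb1: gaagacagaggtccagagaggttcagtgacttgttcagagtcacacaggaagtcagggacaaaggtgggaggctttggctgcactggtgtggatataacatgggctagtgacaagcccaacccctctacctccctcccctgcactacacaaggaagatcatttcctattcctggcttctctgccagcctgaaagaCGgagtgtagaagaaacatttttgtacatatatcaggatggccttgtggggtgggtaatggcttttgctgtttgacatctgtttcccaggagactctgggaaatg

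Kcna2 carried 31 CG dinucleotides in its window, a number reached by 10.6% of the 32851 promoter windows of the RefSeq table, and Kcna4 carried 20, reached by 26.5%. Kcna6 held 8, Kcne4 and Kcnj8 held 9 each, and Kcnmb1 held 1, a number reached by 94.6% of all windows. The 3 Shaker-type windows thus held unlike numbers of CG dinucleotides, from 31 in Kcna2 to 8 in Kcna6, next to a median of 7 over the windows of the table. Over both strands, the Sp-factor box GGGCGG occurred once or more in the windows of Kcna2 and Kcna4 and in no other of the 6. It occurred in 35.7% of all windows and in 46 of the 97 windows of the 72 members with an entry. The hexamer ACAAAG, a core of Sox-type sites, occurred in 18.7% of all windows and, of the 6 shown, in that of Kcnmb1 alone. Its variant ACAATG occurred in 12.6% of all windows and in none of the 6. The TATA box, searched as TATAAA, was in none of the 6 and in 13.6% of all windows. The CArG box, the serum response factor site of smooth muscle genes, was in none of the 97 member windows and in 1.63% of all windows. These are matches of letters in 300 bases and describe the windows alone.

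Of the 98 members, 73 reached 1 CPM (reads of a gene relative to all reads of its library) in a library and 44 reached 10 CPM. The other 25 stayed under 1 CPM in all 7 libraries, with Kcnk16 and Kcnk18 at 0 reads in every one of them. They are Kcna7, Kcna10, Kcnd3os, Kcne1, Kcne2, Kcng3, Kcnh4, Kcnh6, Kcnh7, Kcnj1, Kcnj4, Kcnj13, Kcnj14, Kcnj16, Kcnk4, Kcnk7, Kcnk9, Kcnk15, Kcnk16, Kcnk18, Kcnmb3, Kcnmb4os1, Kcns1, Kcns2 and Kcnv2. The share reaching 1 CPM was highest among the calcium- or sodium-activated genes (11 of 12) and lowest among the two-pore genes (8 of 14). Counts of 0 allow a level of up to 0.0459 to 0.0578 CPM, the worth of 3 reads in a library, with regard to counting error only.

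The number of coding members at 1 CPM or more was 27 in adipose neurospheres, 38 in primary adipose cells, 43 in bowel M2 neurospheres, 52 in bowel M1 neurospheres, 34 in tdTomato-positive spheroid cells, 33 in tdTomato-negative spheroid cells and 65 in primary bowel cells. Primary bowel cells thus held the widest set and adipose neurospheres the narrowest. The same held over all genes, with 14690 at 1 CPM or more in primary bowel cells and 12401 in adipose neurospheres. Of the 71 coding members that reached 1 CPM, 31 (43.7%) were highest in primary bowel cells, where 16.3% of all genes at that level were highest. In tdTomato-positive spheroid cells 2 members (2.82%) were highest, against 6.32% of all genes, and in adipose neurospheres 4 (5.63%), against 14.1% of all genes. In these bulk libraries, fewer cells of a type and less RNA per cell cannot be told apart.

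Markers of the labelled cells and of other cell types set the frame for these values. Summed over 9 crest and glia markers, the 6 tdTomato-positive libraries held between 1313 and 5040 CPM and the tdTomato-negative library 25.4 CPM, and no marker of that list was at 0 reads anywhere. Primary bowel cells, although sorted as positive, also held 24897 CPM of 7 smooth muscle markers, against at most 347 CPM in any other library, 39335 CPM of 6 pancreatic acinar markers, against at most 3.95 CPM elsewhere, and 4080 CPM of 6 macrophage markers. All of these listed smooth muscle, acinar and macrophage markers had reads in every library. The 12 neuron markers summed to 4102 CPM in primary bowel cells and to between 74.9 and 1752 CPM in the other tdTomato-positive libraries. Their part in the levels of the channel genes was not tested.

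**Figure D1:**
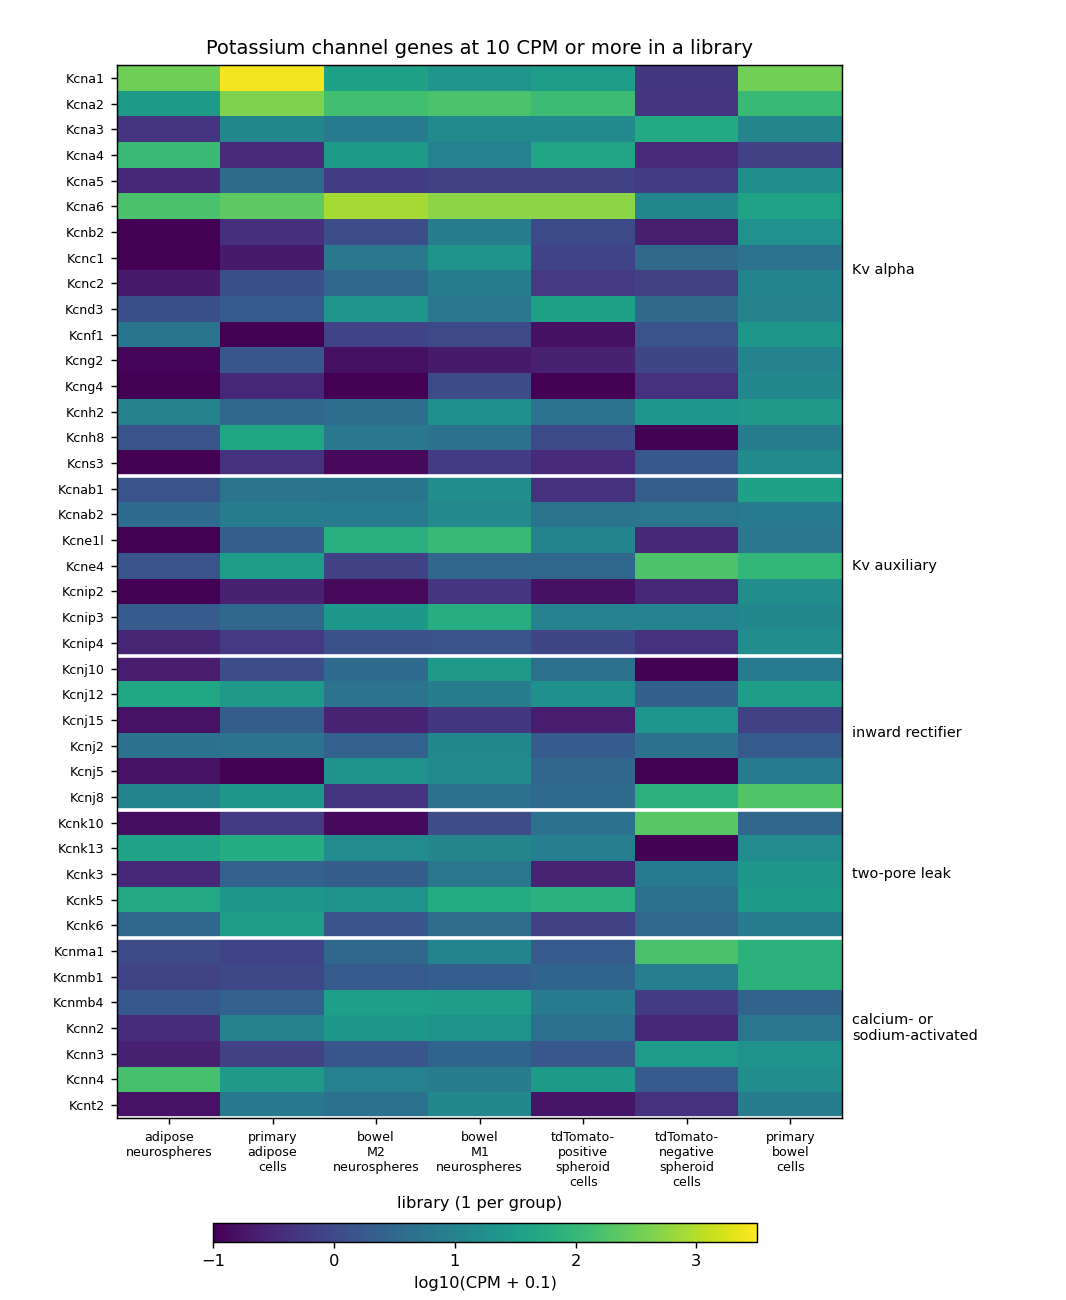
Levels of 41 coding members with 10 CPM or more in a library, as log10(CPM + 0.1), with 1 column per library and rows grouped by family. Kcna1 in primary adipose cells (2587 CPM) is the brightest field, Kcna6 is bright in the bowel cultures with tdTomato label, and the primary bowel column has the fewest dark fields.

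Levels of different genes can be compared only per kilobase of exon. On that scale Kcna1 took 74.3% of the summed level of the coding members in primary adipose cells, with 586 CPM per kb. Kcna6 led in bowel M2 neurospheres (136 CPM per kb, 45.9%), in bowel M1 neurospheres (90.9 CPM per kb, 28.0%) and in tdTomato-positive spheroid cells (87.9 CPM per kb, 42.9%). Adipose neurospheres were led by the intermediate-conductance channel gene Kcnn4 (75.4 CPM per kb, 28.0%) with Kcna1 next (72.0 CPM per kb). Kcne4, an auxiliary subunit, led in tdTomato-negative spheroid cells with 65.3 CPM per kb (30.2%). In primary bowel cells Kcna1 (80.3 CPM per kb) and the ATP-sensitive inward rectifier Kcnj8 (75.0 CPM per kb) were next to each other at the top. The leading channel gene thus differed between the adipose and bowel neurospheres and between both sorted fractions of the bowel spheroids.

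The words higher and lower are used for genes whose TMM-scaled reads differed at least 4-fold while the whole 95% counting interval lay past 2-fold. Ratios are given as log2, and the intervals cover counting error only. With 1 library per group there is no replicate check and no p-value for any difference. Genes that reached 1 CPM in at least 1 library of a comparison were taken as measured.

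The Shaker-type genes encode the voltage-gated subunits that keep axons from firing repeatedly, and they gave the highest levels of the whole set. Kcna1 had 318 CPM in adipose neurospheres, 2587 in primary adipose cells, 37.8 in bowel M2 neurospheres, 21.9 in bowel M1 neurospheres, 32.6 in tdTomato-positive spheroid cells, 0.433 in tdTomato-negative spheroid cells and 355 in primary bowel cells. It was highest in the primary library of each tissue. Kcna6, whose gene lies next to Kcna1 on chromosome 6 with a gap of 62.5 kb, had 159 CPM in adipose neurospheres, 241 in primary adipose cells, 794 in bowel M2 neurospheres, 531 in bowel M1 neurospheres, 513 in tdTomato-positive spheroid cells, 11.7 in tdTomato-negative spheroid cells and 38.6 in primary bowel cells. These neighbours thus had their highest levels in different libraries, and their neighbour Kcna5, a channel of heart and vascular muscle, was highest in primary bowel cells with 17.1 CPM. Reads of Kcna6 cannot be told from those of the opposite-strand gene Gm26673, which covers 40.4% of its exon bases, because the sources used here do not say whether strand was used in counting.

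Kcna2, the usual partner of Kcna1 in axonal channels (chr3:107090883-107115005, plus strand), had 28.5 CPM in adipose neurospheres, 426 in primary adipose cells, 136 in bowel M2 neurospheres, 167 in bowel M1 neurospheres, 121 in tdTomato-positive spheroid cells, 0.387 in tdTomato-negative spheroid cells and 111 in primary bowel cells. All 4 bowel libraries with the label lay between 111 and 167 CPM. Kcna4, which forms a fast-inactivating A-type channel, had 119 CPM in adipose neurospheres, 0.250 in primary adipose cells, 28.5 in bowel M2 neurospheres, 9.31 in bowel M1 neurospheres, 42.0 in tdTomato-positive spheroid cells, 0.247 in tdTomato-negative spheroid cells and 0.641 in primary bowel cells. It was above 9 CPM in each of the 4 cultured libraries with the label and under 1 CPM in the other 3. Kcna3, best known from lymphocytes, had 55.7 CPM in tdTomato-negative spheroid cells, 0.390 in adipose neurospheres and between 6.66 and 14.3 CPM in the other 5 libraries. The lymphocyte markers summed to 508 CPM in primary adipose cells, 97.9 in primary bowel cells, 8.78 in the tdTomato-negative library and at most 8.17 elsewhere. None of the 6 was at 0 reads in the tdTomato-negative library, and their part in the level of Kcna3 was not tested.

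**Figure D2:**
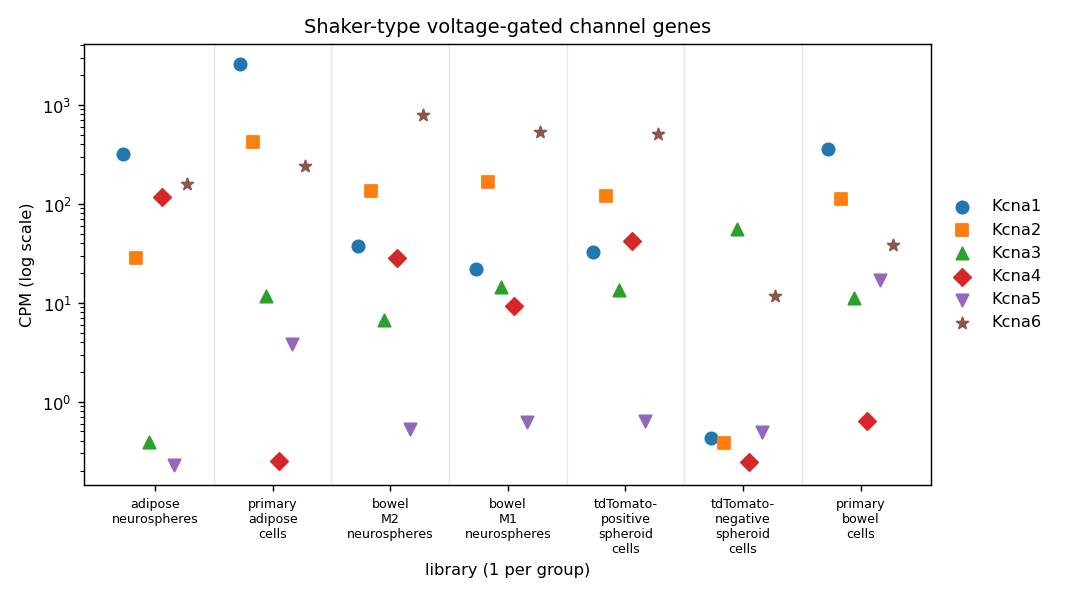
CPM of 6 Shaker-type genes in the 7 libraries on a log axis, with 1 point per gene and library. Kcna4 is at 9.31 CPM or more in the 4 cultured tdTomato-positive libraries and below 1 CPM in both primary libraries and the tdTomato-negative one, while Kcna1 peaks in primary adipose cells.

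Kcnb2 and Kcnc1 encode delayed rectifiers, which repolarise neurons, and both had their highest levels in primary bowel cells or bowel M1 neurospheres. Kcnb2 had 19.1 CPM in primary bowel cells, 7.90 in bowel M1 neurospheres and at most 1.06 CPM elsewhere. Kcnc1, a fast delayed rectifier, was highest in bowel M1 neurospheres with 20.8 CPM, followed by bowel M2 neurospheres with 6.22 and primary bowel cells with 5.13 CPM. It had 0 reads in adipose neurospheres. Of the A-type genes of the Kcnd group, Kcnd3 (chr3:105451890-105674002, plus strand) had 36.2 CPM in tdTomato-positive spheroid cells, 22.5 in bowel M2 neurospheres, 10.2 in primary bowel cells, 6.19 in bowel M1 neurospheres, 3.56 in tdTomato-negative spheroid cells, 1.89 in primary adipose cells and 1.15 in adipose neurospheres. Kcnd2 stayed at or under 4.85 CPM in all libraries.

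Of the subunits that are silent alone and act only together with Kcnb subunits, 4 reached 10 CPM, each in primary bowel cells alone. That these 4 were highest in primary bowel cells thus follows from the 10 CPM level. Of all genes at 1 CPM or more in a library, 16.3% were highest there. Kcnf1 had 23.8 CPM there, Kcns3 13.8, Kcng4 12.7 and Kcng2 10.3 CPM. Outside that library the highest value of any of the 4 was 5.57 CPM, that of Kcnf1 in adipose neurospheres. Of the ether-a-go-go type genes, Kcnh2, the repolarising channel of the heart, had 10.3 CPM in adipose neurospheres, 3.11 in primary adipose cells, 4.17 in bowel M2 neurospheres, 18.0 in bowel M1 neurospheres, 5.08 in tdTomato-positive spheroid cells, 23.1 in tdTomato-negative spheroid cells and 25.8 in primary bowel cells. Kcnh8 had 45.1 CPM in primary adipose cells, at most 8.01 CPM in the other libraries and 0 reads in tdTomato-negative spheroid cells. Kcnh5 had 7.23 CPM in bowel M1 and 3.81 in bowel M2 neurospheres and at most 0.248 CPM elsewhere. Kcnq3, a subunit of the M-type channel whose slow current holds neurons below threshold, was highest in bowel M1 neurospheres at 5.18 CPM.

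Auxiliary subunits change the gating or trafficking of voltage-gated channels. Kcne1l, a small single-span subunit on chromosome X, had 0 reads in adipose neurospheres, 2.17 CPM in primary adipose cells, 65.3 in bowel M2 neurospheres, 106 in bowel M1 neurospheres, 10.8 in tdTomato-positive spheroid cells, 0.216 in tdTomato-negative spheroid cells and 5.93 in primary bowel cells. Its 3 highest libraries were thus all bowel cultures with the label. Kcne4, an inhibitory subunit of Kcnq1 and some Shaker-type channels, had 1.38 CPM in adipose neurospheres, 32.6 in primary adipose cells, 0.674 in bowel M2 neurospheres, 3.01 in bowel M1 neurospheres, 3.08 in tdTomato-positive spheroid cells, 174 in tdTomato-negative spheroid cells and 94.3 in primary bowel cells. It was low in every cultured library with the label. The fibroblast markers, with reads for 7 of 7 in every library, had their 3 highest sums in the same libraries as Kcne4, but in another order. These were 24340 CPM in tdTomato-negative spheroid cells, 11989 in primary adipose cells and 5218 in primary bowel cells, against at most 2197 CPM elsewhere. Dcn, Col3a1, Pdgfra and Lum each had their 3 highest levels in these libraries. Col1a1 and Col1a2 did not, with 325 and 770 CPM in adipose neurospheres against 101 and 415 in primary bowel cells. Neither did Fbln1, with 733 CPM in bowel M1 neurospheres and 24.1 in primary adipose cells. The part of these markers in the level of Kcne4 was not tested.

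The calcium-binding Kcnip proteins join Kcnd subunits. Kcnip3, also known as a transcriptional repressor, had 1.83 CPM in adipose neurospheres, 3.08 in primary adipose cells, 25.5 in bowel M2 neurospheres, 64.1 in bowel M1 neurospheres, 9.86 in tdTomato-positive spheroid cells, 9.93 in tdTomato-negative spheroid cells and 12.7 in primary bowel cells. Kcnip2 and Kcnip4 reached 16.8 and 16.2 CPM in primary bowel cells and at most 1.35 CPM in any other library. Dpp6, another Kcnd partner that is not a Kcn gene, likewise had 45.7 CPM in primary bowel cells and 19.7 in bowel M1 neurospheres, and at most 2.24 CPM elsewhere. Of the cytoplasmic beta subunits, Kcnab1 had 38.1 CPM in primary bowel cells and 16.3 in bowel M1 neurospheres, Kcnab2 lay between 3.72 and 12.8 CPM in all 7 libraries, and Kcnab3 was highest in adipose neurospheres at 8.65 CPM.

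Inward rectifiers clamp the membrane near the potassium potential. Kcnj8, the pore of an ATP-sensitive channel of vascular muscle and pericytes, had 10.8 CPM in adipose neurospheres, 24.4 in primary adipose cells, 0.398 in bowel M2 neurospheres, 4.93 in bowel M1 neurospheres, 3.61 in tdTomato-positive spheroid cells, 76.6 in tdTomato-negative spheroid cells and 191 in primary bowel cells. Its sulfonylurea receptor Abcc9, which lies 16.2 kb away on chromosome 6, had 60.3 CPM in tdTomato-negative spheroid cells, 58.6 in primary bowel cells, 12.4 in primary adipose cells and 10.8 in adipose neurospheres, and at most 6.48 CPM in the other 3. The same 4 libraries were thus the highest ones for both genes. The 5 pericyte markers, among which Abcc9 was listed, summed to 128 CPM in adipose neurospheres, 108 in primary adipose cells, 195 in bowel M2 neurospheres, 291 in bowel M1 neurospheres, 258 in tdTomato-positive spheroid cells, 241 in tdTomato-negative spheroid cells and 240 in primary bowel cells, with Higd1b at 0 reads in bowel M2 and M1 neurospheres. Cspg4 made up most of the sums in bowel M2 neurospheres (191 CPM), bowel M1 neurospheres (278) and tdTomato-positive spheroid cells (255). The order of the sums differed from that of Kcnj8. Rgs5 had 153 CPM in primary bowel cells, 12.5 in tdTomato-negative spheroid cells, 12.3 in primary adipose cells, 11.5 in adipose neurospheres and at most 1.12 elsewhere. Notch3 was highest in tdTomato-negative spheroid cells (13.8 CPM) and Higd1b in primary adipose cells (4.55 CPM). The part of these markers in the level of Kcnj8 was not tested. Kcnj11 and Abcc8, the ATP-sensitive channel of neurons and beta cells, were highest in primary bowel cells at 1.13 and 6.28 CPM.

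Kcnj10, the main inward rectifier of glia in the brain and of satellite glia, had 26.3 CPM in bowel M1 neurospheres, 7.35 in primary bowel cells, 4.57 in tdTomato-positive spheroid cells, 3.60 in bowel M2 neurospheres, 1.05 in primary adipose cells, 0.130 in adipose neurospheres and 0 reads in tdTomato-negative spheroid cells. Kcnj12, a strong rectifier, was highest in adipose neurospheres with 48.9 CPM, followed by 31.7 in primary bowel cells, 25.6 in primary adipose cells and 18.4 in tdTomato-positive spheroid cells, with 8.13 in bowel M1 neurospheres, 5.08 in bowel M2 neurospheres and 2.44 in tdTomato-negative spheroid cells. The G protein-gated subunit Kcnj5 had 20.4 CPM in bowel M2 and 13.8 in bowel M1 neurospheres, 7.37 in primary bowel cells, 2.92 in tdTomato-positive spheroid cells and 0.0649 in adipose neurospheres, with 0 reads in primary adipose and tdTomato-negative spheroid cells. Kcnj3, which joins Kcnj5 in such channels, was seen in the same 4 bowel libraries (5.36, 3.08, 4.27 and 1.01 CPM in M2 neurospheres, M1 neurospheres, tdTomato-positive spheroid cells and primary cells) and had 0 reads in the other 3. An opposite-strand gene, Gm26794, covers 31.1% of the exon bases of Kcnj3. Kcnj15 was above 2 CPM in 1 library, tdTomato-negative spheroid cells, with 22.6 CPM.

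Two-pore channels carry the background leak. Kcnk10, a mechanosensitive leak channel, had 214 CPM in tdTomato-negative spheroid cells, 4.91 in tdTomato-positive spheroid cells, 3.02 in primary bowel cells, 1.06 in bowel M1 neurospheres and less than 1 CPM in the other 3. Its level in the negative fraction stood far above that in the other 6 libraries. Kcnk13, a leak channel that halothane inhibits, had 39.3 CPM in adipose neurospheres, 61.7 in primary adipose cells, 14.6 in bowel M2 neurospheres, 10.9 in bowel M1 neurospheres, 8.57 in tdTomato-positive spheroid cells, 0 reads in tdTomato-negative spheroid cells and 14.6 CPM in primary bowel cells. Kcnk5, a leak channel that opens at alkaline pH, had 52.8 CPM in adipose neurospheres, 24.7 in primary adipose cells, 20.8 in bowel M2 neurospheres, 60.7 in bowel M1 neurospheres, 73.9 in tdTomato-positive spheroid cells, 4.38 in tdTomato-negative spheroid cells and 28.5 in primary bowel cells. The acid-sensitive channel gene Kcnk3 reached 24.0 CPM in primary bowel cells and at most 7.22 CPM elsewhere, and Kcnk6 reached 31.6 CPM in primary adipose cells and at most 7.63 CPM elsewhere.

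Calcium-activated channels couple calcium signals to repolarisation. Kcnma1, the pore of the large-conductance BK channel, had 161 CPM in tdTomato-negative spheroid cells, 78.2 in primary bowel cells, 10.4 in bowel M1 neurospheres, 3.08 in bowel M2 neurospheres, 1.81 in tdTomato-positive spheroid cells, 1.02 in adipose neurospheres and 0.703 in primary adipose cells. Its accessory subunits were split over different libraries. Kcnmb1, the smooth muscle beta subunit (chr11:33962955-33973641, plus strand), had 77.7 CPM in primary bowel cells, 8.41 in tdTomato-negative spheroid cells and at most 2.69 CPM elsewhere, whereas Kcnmb4, the neuronal beta subunit, had 34.3 CPM in bowel M2 neurospheres, 32.4 in bowel M1 neurospheres, 7.46 in tdTomato-positive spheroid cells and at most 2.58 CPM elsewhere. The gamma subunit gene Lrrc55 had 154 CPM in tdTomato-negative spheroid cells and at most 2.64 CPM elsewhere. Opposite-strand transcripts cover 75.3% of the exon bases of Kcnmb4. One of them, Kcnmb4os2, had its highest levels, 5.47 and 3.54 CPM, in bowel M1 and M2 neurospheres as well, so the share of reads that belongs to each cannot be told apart.

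Small-conductance channels, which give neurons their afterhyperpolarisation, also differed among themselves. Kcnn3, the member known from interstitial and fibroblast-like cells of the gut muscle, had 29.1 CPM in tdTomato-negative spheroid cells, 20.7 in primary bowel cells and at most 2.70 CPM elsewhere. Kcnn2 had 25.2 CPM in bowel M2 neurospheres, 20.5 in bowel M1 neurospheres, 10.1 in primary adipose cells, 5.65 in primary bowel cells, 4.29 in tdTomato-positive spheroid cells and at most 0.276 CPM in adipose neurospheres and tdTomato-negative spheroid cells. Kcnn4 had 153 CPM in adipose neurospheres, 25.9 in primary adipose cells, 9.33 in bowel M2 neurospheres, 7.63 in bowel M1 neurospheres, 28.2 in tdTomato-positive spheroid cells, 1.84 in tdTomato-negative spheroid cells and 15.8 in primary bowel cells. The sodium-activated channel gene Kcnt2 was highest in bowel M1 neurospheres at 12.4 CPM. The non-coding Kcnq1ot1, which silences the imprinted Kcnq1 region on the paternal chromosome, was, with Kcna6, at 10 CPM or more in all 7 libraries, with 81.0 CPM in bowel M1 neurospheres and between 11.4 and 32.7 CPM in the others. It was called in none of the 9 comparisons.

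The tdTomato-positive cells were compared with the tdTomato-negative cells of the same mixed bowel spheroids to set crest-derived cells against their neighbours. 34 of the 47 measured members were called, 15 higher and 19 lower in tdTomato-positive cells. Of all 13951 measured genes 19.1% were called, 6.64% higher and 12.5% lower. Shaker-type genes had 4 of 5 measured members higher in the positive cells. Kcna2 had 121 CPM in positive and 0.387 in negative cells (log2 ratio 7.95, interval 7.49 to 8.68), Kcna4 had 42.0 and 0.247 CPM (7.01, interval 6.46 to 7.97), and Kcna6 had 513 and 11.7 CPM (5.21, interval 5.11 to 5.32). Kcna1 followed with a log2 ratio of 5.90. The exception was Kcna3, lower in positive cells at 13.4 against 55.7 CPM (log2 ratio -2.29, interval -2.41 to -2.19).

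4 of 7 inward rectifiers were higher in the positive cells, 3 of them with 0 reads in the negative library. Kcnj10, Kcnj3 and Kcnj5 were at least 83.2-fold, 77.9-fold and 53.3-fold higher, counting the 0 as 3 reads, and so was the leak channel Kcnk13, at least 156-fold. The lower side held the BK pore and several leak channels. Kcnma1 had 1.81 CPM in positive and 161 in negative cells (log2 ratio -6.69, interval -6.99 to -6.45), Kcne4 had 3.08 and 174 CPM (-6.04, interval -6.27 to -5.86), Kcnk10 had 4.91 and 214 CPM (-5.68, interval -5.85 to -5.53), and Kcnj15 had 0.124 and 22.6 CPM (-7.41, interval -8.97 to -6.77). Kcnk3, Kcnk12 and Kcnk6 were lower too, so that 4 of 7 measured two-pore genes were lower and 2, Kcnk13 and Kcnk5, were higher.

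The median log2 ratio of the 47 members was -0.96, and that of all genes was 0.0074. Among the 20 channel partners listed (accessory, clustering and scaffold proteins), 3 of 13 measured were higher and 3 lower. The crest and glia markers summed to 5040 CPM in positive and 25.4 CPM in negative cells, the fibroblast markers to 861 and 24340 CPM, and the 5 markers of interstitial cells of Cajal to 69.2 and 374 CPM, with no marker of these lists at 0 reads in either library. Their part in the channel differences was not tested.

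**Figure D3:**
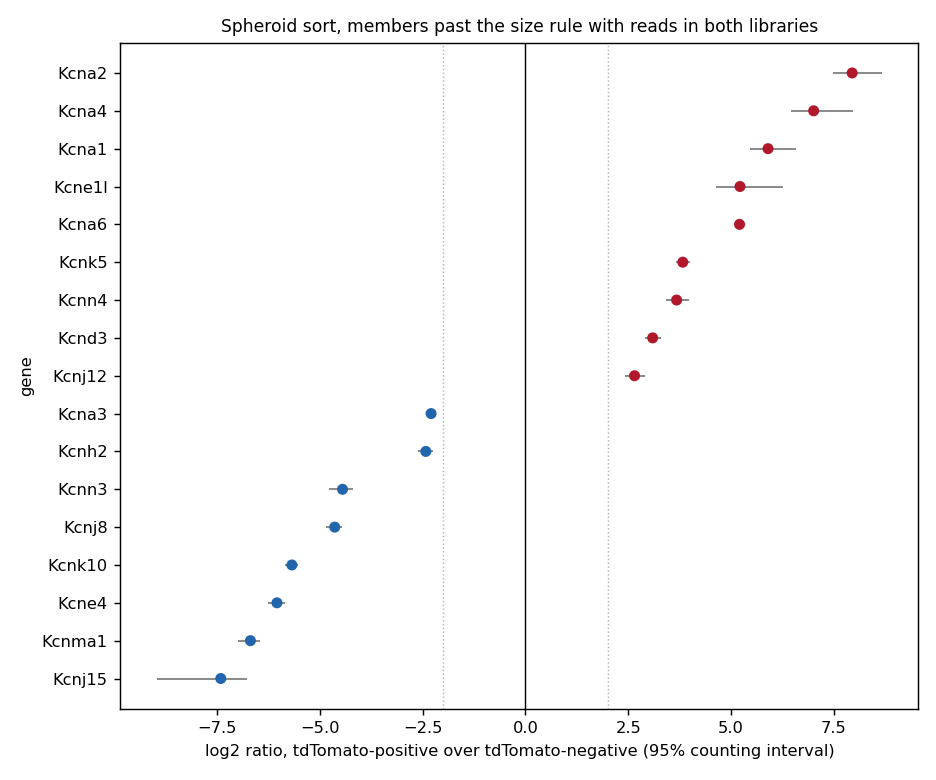
Log2 ratios of tdTomato-positive over tdTomato-negative spheroid cells with 95% counting intervals, for the 17 coding members past the size rule that reached 10 CPM in 1 of the 2 libraries and had reads in both. Dotted lines mark a 4-fold difference. Shaker-type genes other than Kcna3 lie on the right, from 5.21 to 7.95, and Kcnj15, Kcnma1, Kcne4 and Kcnk10 lie farthest left.

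Adipose and bowel tissue were set against each other first without culture, as primary adipose against primary bowel cells. 45 of the 67 measured members were called, 5 higher and 40 lower in adipose cells. Of all 15585 measured genes 18.5% were called, 7.09% higher and 11.4% lower. Members had a median log2 ratio of -2.44, and all genes of 0.088. The 5 higher members were Kcna1 (2587 CPM in adipose and 355 in bowel cells; log2 ratio 2.85, interval 2.83 to 2.87), Kcna6 (241 and 38.6 CPM; 2.62, interval 2.56 to 2.69), Kcnh8 (45.1 and 8.01 CPM; 2.47), Kcnk13 (61.7 and 14.6 CPM; 2.06) and Kcnk6 (31.6 and 7.63 CPM; 2.03). 20 of 28 voltage-gated pore genes were lower, among them Kcnb2 and the silent subunit Kcns3. Kcnf1 had 0 reads in adipose cells and 23.8 CPM in bowel cells, at least 515-fold lower, and Kcnb2 had 0.312 and 19.1 CPM (log2 ratio -5.81, interval -6.67 to -5.32).

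The BK channel was at 0.703 CPM in primary adipose cells and 78.2 in primary bowel cells for its pore gene Kcnma1 (log2 ratio -6.75, interval -7.27 to -6.39) and at 0.828 and 77.7 CPM for its muscle subunit Kcnmb1 (-6.52, interval -6.99 to -6.18). The G protein-gated gene Kcnj5 had 0 reads in adipose cells and was at least 159-fold lower. Kcnip2 (0.156 and 16.8 CPM; -6.50) and Kcnip4 (0.453 and 16.2 CPM; -5.08) were lower as well. 2 of 17 measured partners were higher and 6 lower. Lgi1, a secreted partner of axonal Shaker-type channels, was higher with 113 CPM in adipose and 10.4 in bowel cells. The neuron markers summed to 74.9 CPM in adipose and 4102 in bowel cells, with Elavl3 at 0 reads in the adipose library, the 7 smooth muscle markers to 347 and 24897 CPM, and the 6 Schwann myelin markers to 4628 and 813 CPM. Their part in these differences was not tested.

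After culture the tissues were compared again, adipose neurospheres against bowel M2 neurospheres, which had gone through the same stages. 32 of the 49 measured members were called, 7 higher and 25 lower. Of all 13440 measured genes 14% were called, 5.33% higher and 8.71% lower. Their median log2 ratio was -2.08, and that of all genes -0.011. Kcnn4 led the higher side in level, with 153 CPM in adipose and 9.33 in bowel neurospheres (log2 ratio 4.15, interval 4.04 to 4.28), and Kcnj8 (10.8 and 0.398 CPM; 4.77), Kcnj12 (48.9 and 5.08 CPM; 3.38), Kcna1 (318 and 37.8 CPM; 3.19) and Kcna4 (119 and 28.5 CPM; 2.17) were higher as well. Kcne1l had 0 reads in adipose neurospheres and 65.3 CPM in bowel neurospheres, at least 1234-fold lower. Kcnj5 had 0.0649 and 20.4 CPM (-7.63, interval -10.05 to -6.81), and Kcnn2 had 0.276 and 25.2 CPM (-6.25, interval -7.18 to -5.71).

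Kcna2 and Kcna6 were lower in adipose neurospheres, at 28.5 against 136 CPM (log2 ratio -2.13) and 159 against 794 CPM (-2.20). The subunits Kcnmb4 (1.66 against 34.3 CPM; -4.23) and Kcnip3 (1.83 against 25.5 CPM; -3.66) were also lower. Of the 44 members measured at both stages, 14 were lower in adipose cells at both and 1, Kcna1, was higher at both. Of all 12958 genes measured at both, 3.03% were lower at both and 0.671% higher at both. Those lower at both included Kcnb2, Kcnc1, Kcnd3, Kcnip3, Kcnip4, Kcnj3, Kcnj5, Kcnj10, Kcnk3 and Kcnn3. Kcna6 and Kcnh8 were higher in adipose primary cells and lower in adipose neurospheres, as were 0.695% of all genes measured at both. Kcnf1 and Kcnj8 were lower in adipose primary cells and higher in adipose neurospheres, as were 0.841% of all genes. The 12 neuron markers summed to 723 CPM in adipose and 1505 CPM in bowel neurospheres. Uchl1 alone of them was higher in adipose neurospheres (502 against 105 CPM). Together with Tubb3 (209 against 303 CPM) it made up most of the adipose sum. Snap25 had 0 reads in adipose neurospheres, and Elavl4 had 0.195 against 125 CPM. The part of these markers was not tested.

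**Figure D4:**
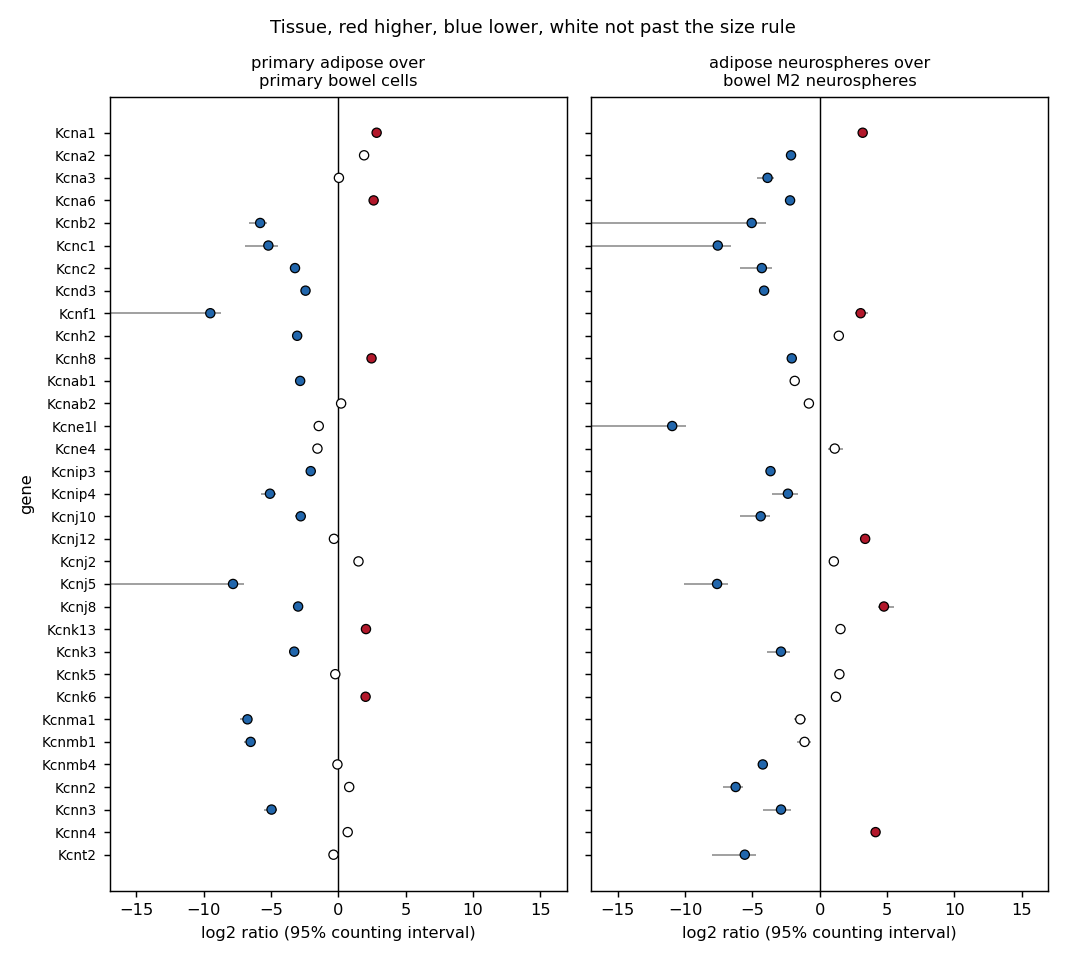
Log2 ratios of adipose over bowel libraries with 95% counting intervals, left for primary cells and right for neurospheres (M2 for bowel), for 33 coding members measured at both stages with a level of 10 CPM or more in a library of the study. Red points passed the size rule as higher, blue points as lower and white points did not pass. Intervals of genes with 0 reads in a library run off the axis. Most points lie left of 0 in both panels, and Kcna1 is red in both.

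The effect of culture was compared within each tissue. In adipose tissue, neurospheres against primary cells, 29 of 45 measured members were called, 5 higher and 24 lower. Of all 14773 measured genes 26.5% were called, 5.71% higher and 20.8% lower. At the median, members had a log2 ratio of -2.16 and all genes of -0.012. Kcna4 led the higher members at 119 CPM in neurospheres and 0.250 in primary cells (log2 ratio 8.58, interval 8.04 to 9.55). Also higher were Kcnf1, with 5.57 CPM in neurospheres and 0 reads in primary cells (at least 107-fold), Kcnab3 (8.65 and 0.531 CPM; 3.81) and Kcnn4 (153 and 25.9 CPM; 2.42). Kcna1 (318 and 2587 CPM; -3.17, interval -3.19 to -3.15) and Kcna2 (28.5 and 426 CPM; -4.05, interval -4.12 to -3.98) were lower. So were Kcnh8 (1.36 and 45.1 CPM; -5.16), Kcne4 (1.38 and 32.6 CPM; -4.68) and Kcnk6 (3.13 and 31.6 CPM; -3.47). The Schwann myelin markers summed to 26.2 CPM in neurospheres and 4628 in primary cells, with none of 6 at 0 reads, and the macrophage markers to 27.8 and 1607 CPM, and their part was not tested. Lgi1, the partner of axonal Shaker-type channels, had 0.909 and 113 CPM.

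In the bowel, M2 neurospheres against primary cells, 45 of 71 measured members were called, 8 higher and 37 lower. Of all 15189 measured genes 26.9% were called, 5.89% higher and 21% lower. The median log2 ratio was -2.34 for the members and -0.066 for all genes. Kcna4 (28.5 CPM in M2 neurospheres and 0.641 in primary cells; log2 ratio 5.13, interval 4.72 to 5.70), Kcna6 (794 and 38.6 CPM; 4.08, interval 4.02 to 4.14), Kcnmb4 (34.3 and 2.58 CPM; 3.43) and Kcne1l (65.3 and 5.93 CPM; 3.17) were higher. Kcnj8 (0.398 and 191 CPM; -9.07, interval -9.81 to -8.64), Kcne4 (0.674 and 94.3 CPM; -7.34), Kcnmb1 (1.81 and 77.7 CPM; -5.68) and Kcnma1 (3.08 and 78.2 CPM; -4.94) were lower. The smooth muscle markers summed to 32.7 CPM in M2 neurospheres and 24897 CPM in primary cells, with none of 7 at 0 reads, the neuron markers to 1505 and 4102 CPM, and their part was not tested. Silent subunits were also lower, with Kcng4 at 0 reads in M2 neurospheres (at least 338-fold lower) and Kcnf1 at 0.704 and 23.8 CPM (-5.30).

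The same primary bowel library also served as the base for the other bowel cultures. M1 neurospheres had 8 of 71 measured members higher and 27 lower, while of all 15422 measured genes 22.9% were called, 6.58% higher and 16.3% lower. A 2-fold rule gave 54 members in place of 35, with 46.1% of all genes. The tdTomato-positive spheroid cells had 3 of 68 measured members higher and 39 lower, while of all 15232 measured genes 27% were called, 6.57% higher and 20.4% lower. The median log2 ratio of the members was -1.23 for M1 neurospheres and -3.43 for tdTomato-positive spheroid cells. For Kcna6 the log2 ratios over primary cells were 3.32 in M1 neurospheres, 4.08 in M2 neurospheres and 3.56 in tdTomato-positive spheroid cells, and for Kcna4 they were 3.34, 5.13 and 5.79. For Kcna1 they were -4.47, -3.52 and -3.62, and for Kcnj8 -5.72, -9.07 and -5.89. These comparisons share the primary library, so they are not independent of each other.

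Set side by side, the culture comparisons of adipose and bowel (M2) tissue share no library. Of the 44 members measured in both, 13 were lower in both, and 1, Kcna4, was higher in both. Of all 13895 genes measured in both, 11.9% were lower in both and 1.45% higher in both. Those lower in both included Kcna1, Kcna5, Kcnab1, Kcne3, Kcne4, Kcng2, Kcnk1, Kcnk3 and Kcnk6. 9 members were lower in adipose culture and not called in the bowel, as were 5.68% of all genes, among them Kcna2, Kcna3, Kcnh8 and Kcnn2. 4 were lower in bowel culture and not called in adipose tissue (Kcnh2, Kcnj8, Kcnj12 and Kcnma1), as were 3.86% of all genes. Kcna6, Kcnmb4 and Kcnrg were higher in bowel culture and not called in adipose tissue, as were 3.87% of all genes. A difference between the tissues in these calls was not tested, as there is 1 library per group.

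**Figure D5:**
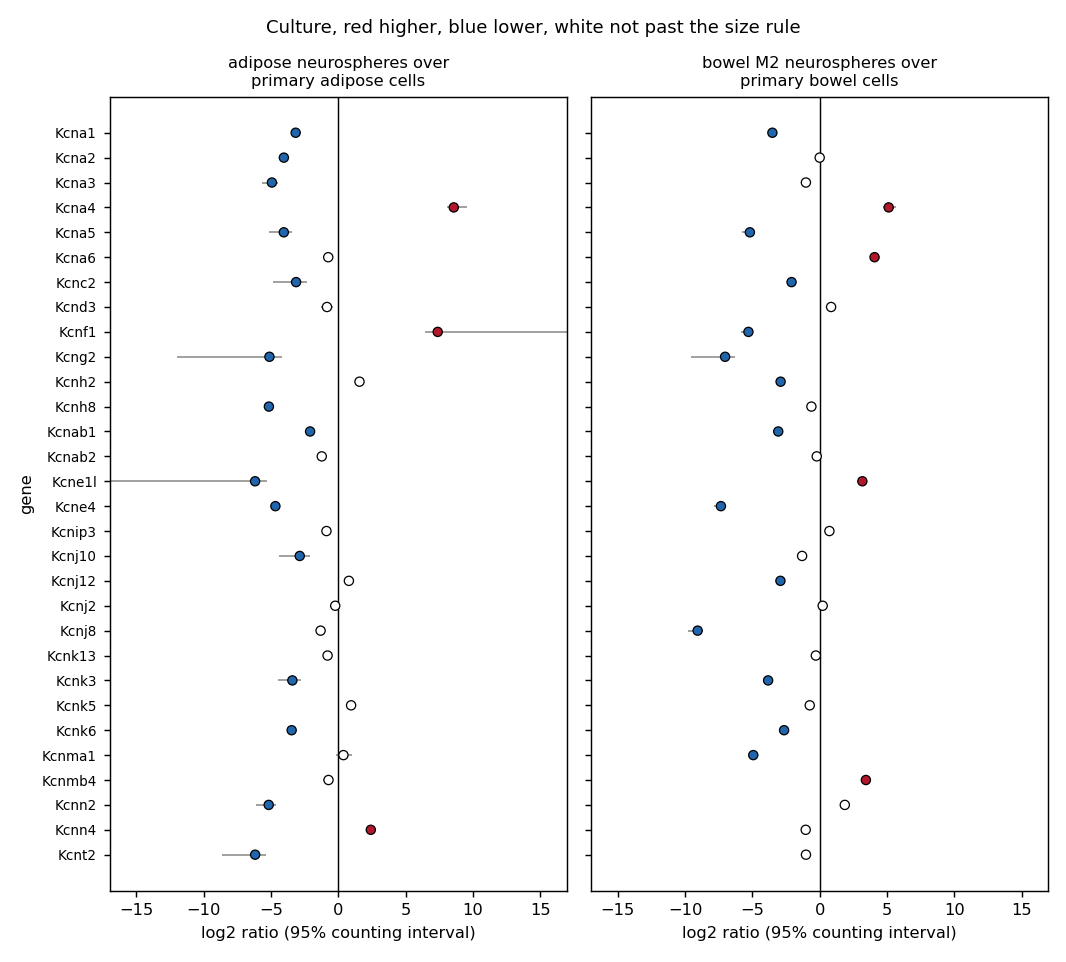
Log2 ratios of neurospheres over primary cells with 95% counting intervals, left for adipose tissue and right for bowel (M2), for 30 coding members measured in both with a level of 10 CPM or more in a library of the study. Red points passed the size rule as higher, blue points as lower and white points did not pass, and intervals of genes with 0 reads in a library run off the axis. Kcna4 is red in both panels, and Kcnf1 and Kcne1l have opposite colours.

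The neurosphere methods were compared last. In M2 against M1 neurospheres, 12 of 55 measured members were called, 1 higher and 11 lower, with a median log2 ratio of -0.75 for the members and -0.078 for all genes. Of all 14141 measured genes 8.57% were called, 1.2% higher and 7.37% lower, and a 2-fold rule gave 28 members with 23% of all genes. Kcnd3 was the higher one, at 22.5 CPM in M2 and 6.19 in M1 neurospheres (log2 ratio 2.03, interval 1.86 to 2.21), and with scaling by total counts it did not pass. The glial rectifier Kcnj10 was lower, at 3.60 and 26.3 CPM (-2.69, interval -2.90 to -2.50), as were Kcnj2 (2.50 and 12.4 CPM; -2.12) and Kcnb2 (1.06 and 7.90 CPM; -2.69). The macrophage markers summed to 56.7 CPM in M2 and 1343 CPM in M1 neurospheres, with none of 6 at 0 reads. Lyz2 made up most of the M1 sum (17.1 CPM in M2 and 1213 in M1). Cd14 alone of the 6 had the larger level in M2 (29.7 against 13.5 CPM). The fibroblast markers summed to 471 and 2197 CPM, and the part of both lists was not tested. None of the 5 measured Shaker-type genes was called here.

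M2 neurospheres were also set against tdTomato-positive spheroid cells, which had been sorted after the same first 10 days and not grown on. In this comparison 17 of 49 measured members were called, 14 higher and 3 lower. Of all 13432 measured genes 6.94% were called, 3.07% higher and 3.86% lower. The median log2 ratio was 0.37 for the members and -0.021 for all genes. It was the only comparison of the 9 in which more members were higher than lower. Kcne1l (65.3 CPM in M2 neurospheres and 10.8 in spheroid cells; log2 ratio 2.49, interval 2.37 to 2.61), Kcnmb4 (34.3 and 7.46 CPM; 2.09), Kcnn2 (25.2 and 4.29 CPM; 2.43) and Kcnj5 (20.4 and 2.92 CPM; 2.68) were higher. The sodium-activated genes Kcnt2 (4.87 and 0.0774 CPM; 5.41) and Kcnt1 (1.53 and 0.0619 CPM; 3.98) were higher from a level near the floor. Kcnk10 (2 reads and 4.91 CPM; log2 ratio -6.41, interval -10.49 to -5.57), Kcnj8 (0.398 and 3.61 CPM; -3.19) and Kcne4 (0.674 and 3.08 CPM; -2.25) were the 3 lower ones. All 3 had been lower in positive than in negative spheroid cells. Kcnma1, Kcna3, Kcnh2 and Kcnn3 had been lower there too but were not called here. Kcnma1 had 3.08 CPM in M2 neurospheres and 1.81 in spheroid cells. Kcnab1, Kcnc1 and Kcnk3, also lower in positive than in negative cells, were higher here. The neuron markers summed to 1505 CPM in M2 neurospheres and 790 CPM in spheroid cells, and the fibroblast markers to 471 and 861 CPM, with none of either list at 0 reads, and their part was not tested.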

How the data were processed

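RNA of the 7 groups was made into full-length cDNA (SMART-Seq v4) and Nextera XT libraries, per the labels' protocols. The authors deposited CPM values for Entrez genes. Per the submitters' processing notes, bcl2fastq 2.17, HISAT, featureCounts and the mm10 genome were used; other settings, such as strand use, are not given in the sources. From these CPM the read counts could be restored (100% of values whole within 0.05 read). Symbols and coordinates came from RefSeq (GRCm38, 25275 of 27179 identifiers matched), and exon lengths and overlaps from GENCODE.

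Reads were scaled by TMM (edgeR 4.0.16, 16461 genes at 1 CPM or more in a library), with a prior count of 2 for log2 ratios and exact conditional binomial 95% intervals. Such intervals and the floor of 3 reads cover counting error only, since amplified reads are not independent molecules. Without replicates no count test was possible. The members, families, partner and marker lists, comparisons and size rule were chosen with earlier results of these data known. Members past the size rule with 10 CPM in the higher library (up to 25 per comparison) and those at 10 CPM in every library were named by rule; others named were chosen after their values were seen.

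Tested on simulated data with counting noise alone, the comparison of the spheroid fractions gave calls for all 50 genes raised 8-fold and all 50 lowered 8-fold, for 0 of 50 raised and 0 of 50 lowered 3-fold, and for 0 of 13338 unchanged genes. Alternatives were scaling by total counts or DESeq2 1.42.0 size factors, no filter or 5 CPM, a prior count of 0.5, a 2-fold rule and M1 neurospheres as the bowel library. Promoter windows were 250 bases before to 50 after RefSeq transcript starts. Python 3.11.15, pandas 2.3.3, scipy 1.17.1 and matplotlib 3.10.9 were used. Results on some members are not reported here, and these members are left out of the figures, while counts over all members include them.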

Additional observations from a re-analysis of the deposited data

Results flagged for a closer look

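2 members moved in opposite directions with culture in the tissues, and with 1 library per group these differences were not tested. Of the 44 members measured in both, 1 was lower in adipose and higher in bowel culture, as were 0.453% of all 13895 genes measured in both. The other was higher in adipose and lower in bowel culture, as were 0.705% of all genes. Kcne1l had 0 reads in adipose neurospheres and 2.17 CPM in primary adipose cells (at least 49.3-fold lower), but 65.3 CPM in bowel M2 neurospheres and 5.93 CPM in primary bowel cells (log2 ratio 3.17). Its culture ratio in adipose tissue minus that in the bowel was -9.35 on the log2 scale. Kcnf1 had 5.57 CPM in adipose neurospheres and 0 reads in primary adipose cells (at least 107-fold higher), but 0.704 CPM in bowel M2 neurospheres and 23.8 CPM in primary bowel cells (log2 ratio -5.30), and the same difference was 12.68. As each has a library at 0 reads, both differences depend on the prior count.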

How the results depend on the processing

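None of the 137 named ratios changed sign with other scalings or another prior count. Each had been named for a difference of 4-fold or more, so this outcome was largely fixed in advance. With a filter at 5 CPM the number of members called was 22 in place of 34 for tdTomato-positive against tdTomato-negative spheroid cells, 20 in place of 32 for adipose against bowel M2 neurospheres, 29 in place of 45 for bowel M2 neurospheres against primary bowel cells, 14 in place of 29 for adipose neurospheres against primary adipose cells, 6 in place of 12 for M2 against M1 neurospheres and 8 in place of 17 for M2 neurospheres against tdTomato-positive spheroid cells, as fewer genes were tested. With no filter it was 52 for adipose neurospheres against primary cells and 19 for M2 against M1 neurospheres. Under the 2-fold rule it was 54 in place of 35 for M1 neurospheres against primary bowel cells (46.1% of all genes) and 28 for M2 against M1 neurospheres (23% of all genes). The other counts stayed within 1.5 times. With M1 neurospheres as the bowel library, 39 members were called in adipose neurospheres (7 higher, 32 lower), 28 of them shared with M2 as the bowel library. The share of all genes called was not computed for the other filters or for M1 as the bowel library. Those counts of members therefore cannot be set against it.

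Scaling by total counts moved the median of all genes by between -0.17 and 0.46 on the log2 scale and ended the calls of Kcnj12 and Kcnv1 (M1 neurospheres against primary bowel cells), Kcnc2 (M2 against primary bowel cells), Kcnab1 (adipose neurospheres against primary cells) and Kcnd3 (M2 against M1). DESeq2 size factors ended that of Kcnk6 (primary adipose against primary bowel cells). Of 411 alternative values of named ratios, 357 stayed within the counting interval. No paired analysis was possible because each group has 1 library. The lack of replicates, the unknown strand use and the near-floor levels of many members limit all values.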
